A study of Mus musculus with 4 samples.

Results

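The integrin and laminin genes were examined in chromatin accessibility data (ATAC-seq) from mouse aortic nuclei. The family was defined by name as the protein-coding integrin α and β chain genes and the laminin α, β and γ chain genes of the GENCODE vM21 annotation, which gave 37 of 21938 protein-coding genes, 18 for integrin α chains, 8 for integrin β chains and 11 for laminin chains. A peak was counted for a gene when it lay in the gene body or within 20 kb of it. There were 4 libraries: 2 of control mice (Col3a1+/+), from females and from males, and likewise 2 of VEDS mice. VEDS mice carried the Col3a1 G938D allele over a wild-type allele, a model of vascular Ehlers-Danlos syndrome. All mice were 60 days old (P60) and no drug treatment is given for them, and each library pooled the aortas of 2 mice of 1 sex, so that each genotype and sex was measured once. Nuclei came from whole minced aortic tissue, prepared with a single-cell ATAC kit and analysed in aggregate, so the signal is that of all aortic cell types together, and fewer cells of a type cannot be told apart from lower accessibility in each cell.

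Integrins are receptors made of an α and a β chain that join the cytoskeleton to the extracellular matrix. In the aortic wall they anchor VSMCs to collagen, fibronectin and the basement membrane, and transmit the load of each pulse to the cell. Laminins are trimers of an α, a β and a γ chain that form the basement membrane around each VSMC and under the endothelium, where integrins bind them.

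The 4 peak lists differed in length. The control female list held 21176 peaks and the VEDS male list 41444 (the long lists), whereas the control male list held 1236 and the VEDS female list 504 (the short lists). Genotype and sex both differ between the long lists and again between the short lists, so neither can be told apart from the difference between lists. The median peak rested on 14 fragments at its summit in control females, 7 in control males, 6 in VEDS females and 22 in VEDS males. Of the control male peaks, 68.8% were over 50% repeat-masked, against 27.4% of the VEDS female peaks, and 3.90 and 5.09% of the control female and VEDS male peaks. All 5 VSMC markers examined (Myh11, Acta2, Tagln, Cnn1 and Lmod1) had a promoter peak in both long lists (beside 47.4% of all protein-coding genes in control females and 58.5% in VEDS males). In the short lists 0 of the 5 had any peak (beside 4.61% of all in control males and 3.20% in VEDS females), so VSMC markers could check the labelled tissue in the long lists only. Any peak was found at 2 of 5 endothelial and 1 of 5 immune markers in control males, and at 1 of 5 of each in VEDS females. No fold enrichment was compared between lists. A peak's rank is its place in its own list by −log10 q, with 1 the highest, and a gene without a peak was not taken to be closed.

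The sequences shown here carry the results below. The first 4 are the consensus matches, 1 for each of AP-1, MEF2, the serum response element CArG and TEAD, that lay in the control female peak of highest −log10 q among peaks of these genes outside promoters, with the match in the summit window of both long lists. They are shown on the plus strand of GRCm38 with 30 bases on each side and the matches in capitals.

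Itga9 intron 15, AP-1, chr9:118731706-118731772: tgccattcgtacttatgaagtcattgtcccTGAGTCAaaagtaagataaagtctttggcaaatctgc
Itgb5 intron 3, AP-1 and MEF2, chr16:33873357-33873426: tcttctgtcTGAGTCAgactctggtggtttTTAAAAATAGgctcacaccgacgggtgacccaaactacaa
Lamc1 intron 18, CArG, chr1:153235777-153235846: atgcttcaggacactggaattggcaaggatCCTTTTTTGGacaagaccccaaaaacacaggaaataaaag
Itgb1 upstream flank, TEAD, chr8:128679986-128680052: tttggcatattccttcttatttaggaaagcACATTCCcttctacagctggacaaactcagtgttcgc

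The other 2 were chosen after their values were seen, because they lie at peaks found in 3 of the 4 libraries. The first is a MEF2 match in Lama5. The second is the RefSeq sequence of the 250 bases upstream of the Itgb1 start, with a GC box (GGGCGG) and a short cAMP response element (CRE) consensus (TGACG) in capitals.

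Lama5 intron 2, MEF2, chr2:180215216-180215285: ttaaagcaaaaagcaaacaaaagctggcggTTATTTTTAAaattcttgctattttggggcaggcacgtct
Itgb1 promoter, chr8:128685404-128685653: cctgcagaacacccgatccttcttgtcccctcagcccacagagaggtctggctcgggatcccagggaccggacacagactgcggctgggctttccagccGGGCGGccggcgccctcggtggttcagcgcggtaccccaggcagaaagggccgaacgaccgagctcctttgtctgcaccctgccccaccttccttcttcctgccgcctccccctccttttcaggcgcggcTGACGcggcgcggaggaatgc

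Most of the family had a peak in the long lists. In the control female library 30 of the 37 genes had at least 1 peak (81.1%, 95% Wilson interval 65.8 to 90.5), beside 64.1% of all protein-coding genes. In the VEDS male library 34 had one (91.9%, 78.7 to 97.2), beside 73.5% of all. The control male list had a peak at 2 of the genes (5.41%, beside 4.61% of all) and the VEDS female list at 4 (10.8%, beside 3.20%). These intervals cover counting error only, and gene length was not matched between the family and all genes. The same 30 genes had a peak in both long lists (81.1%, beside 63.9% of all), and 3 had none in any library: Itgam and Itgax, which encode α chains of myeloid cells, and Lamb1, a laminin β chain.

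Promoters stood closer to the background. A peak within 3 kb of an annotated start of the gene was found for 16 genes in the control female library (43.2%, beside 47.4% of all) and for 24 in the VEDS male (64.9%, beside 58.5%). The control male list had none (beside 1.56% of all), and the VEDS female list had 2 (5.41%, beside 1.49%). All 16 promoters of the control female library also had a peak in the VEDS male (43.2%, beside 47.2%). When only the start of the transcript with the longest coding sequence was used, 13 and 22 genes remained in the long lists. The share of all protein-coding genes by that start is not given, and the shares above are for any annotated start. Itga9 and Itgb6 were among the genes lost in the control female library, and Itga6 and Itgb6 were those lost in the VEDS male.

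**Figure D1:**
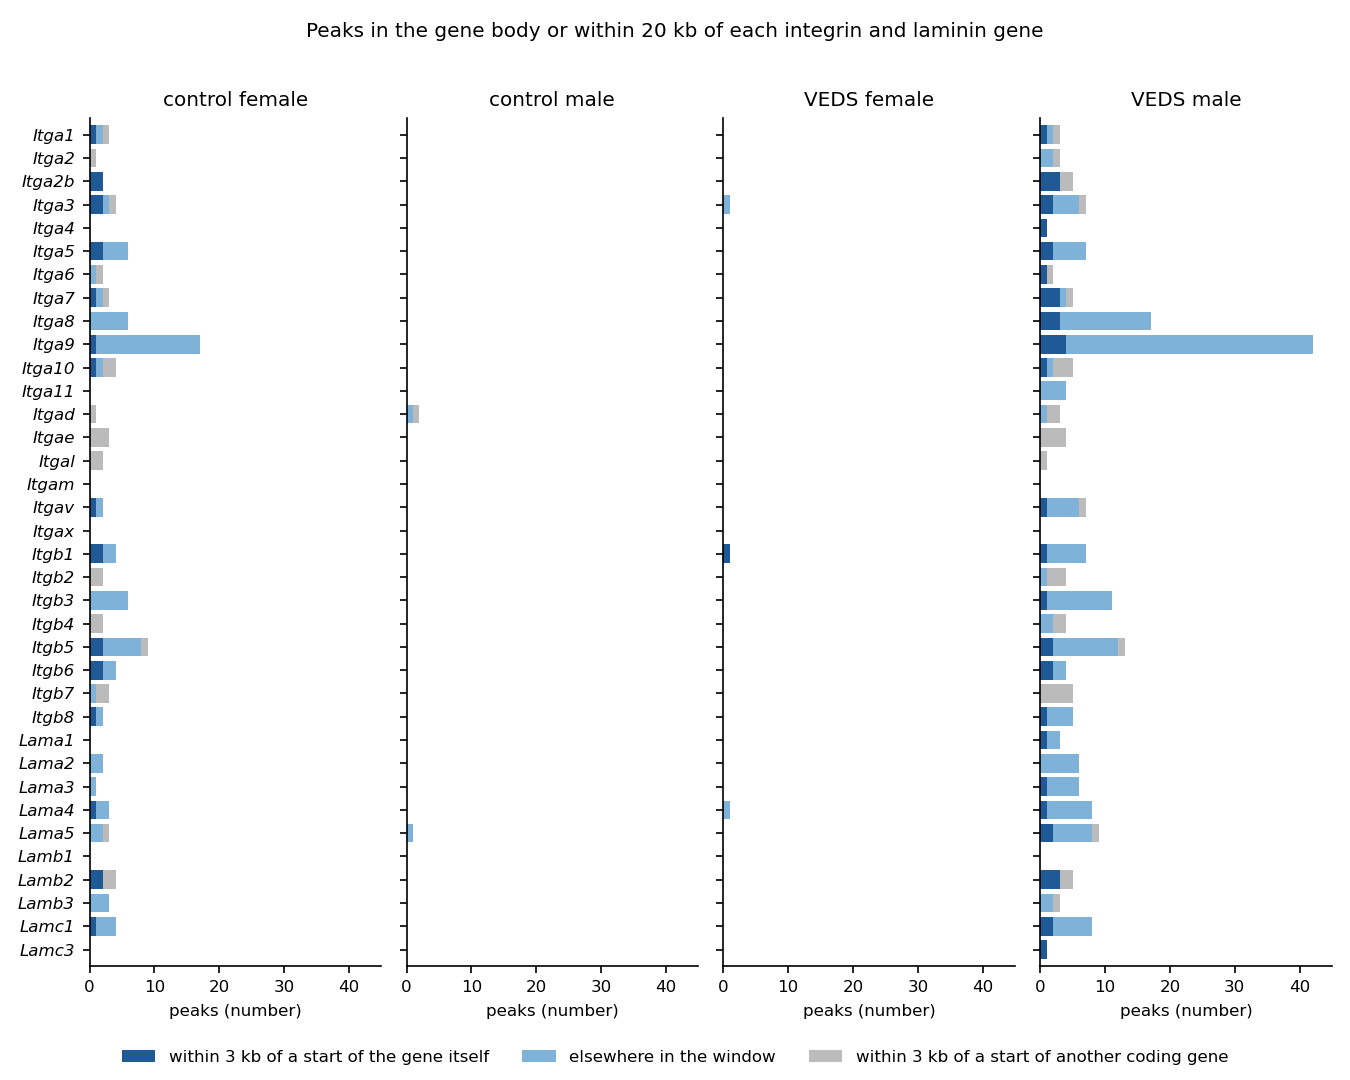
The number of peaks (horizontal axis) in the gene body or within 20 kb of the integrin and laminin genes reported here, in 4 libraries. Dark blue marks peaks within 3 kb of a start of the gene itself. Grey marks those within 3 kb of a start of another coding gene only, and light blue those elsewhere. Itga9 has the longest bars in both long lists, with 17 control female and 42 VEDS male peaks, and the bars of the short lists reach 2 peaks at most.

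The genes held 111 control female peaks, 3 control male, 4 VEDS female and 226 VEDS male peaks, which were 0.524, 0.243, 0.794 and 0.545% of the respective lists. The median gene of the family had 3 control female and 5 VEDS male peaks, against 1 and 2 for all protein-coding genes. Window lengths, 50.8 to 680 kb in the family, were not matched to those of all genes here or in the shares at coding starts that follow. Per 100 kb of window, the family had 2.20 peaks in the control female library against 1.24 for all protein-coding genes, and 4.49 against 2.37 in the VEDS male. Fewer of its peaks lay at a coding start, 41.4% (32.7 to 50.7) against 60.7% in the control female list and 33.6% (27.8 to 40) against 49.1% in the VEDS male. Introns away from any coding start held 43 of the 111 control female peaks (38.7%) and 110 of the 226 VEDS male peaks (48.7%).

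The VEDS male library had more peaks than the control female at 29 of the 37 genes, as many at 7 and fewer at 1, Itgal. The ratio of the family's peaks was 2.04 and the ratio of the whole lists 1.96. When the VEDS male list was shortened to its 21176 highest-ranked peaks, the family held 116 of them against 111 in the control female list, with more in the VEDS male at 12 genes, as many at 13 and fewer at 12. Itga9 then had 16 peaks against 17, Itga8 3 against 6, Itgb5 8 against 9 and Itgb3 8 against 6. No test of genotype was made, since 2 libraries against 2 cannot give a two-sided exact permutation p below 0.333.

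Among the collagen-binding α chains, all 4 genes had a peak in the VEDS male library and 3 in the control female. Itga1, which encodes the α1 collagen receptor chain of smooth muscle, had 3 peaks in each long list and none in the short lists. Its promoter peak ranked 7278 in the control female list (19 fragments) and 6131 in the VEDS male (56 fragments), and lies within 3 kb of the start of Gm49395 as well. The second Itga1 peak lies in intron 1 at the start of Pelo, a gene nested there, and the third 4360 bp upstream. Itga10 had the most peaks of the group, 4 control female and 5 VEDS male peaks. Its own promoter peak ranked 6672 and 11764, while its best-ranked peaks (1377 and 1510) lay at the start of the neighbouring gene Rbm8a. Itga11, a collagen receptor chain of fibroblasts, had 4 intronic peaks in the VEDS male library, the best at rank 20077 with 20 fragments, and none elsewhere, while fibroblast markers had a promoter peak for 2 of 5 genes in the control female list and 1 of 5 in the VEDS male. Itga2, a collagen receptor chain of platelets and epithelia, had a single control female peak, which lay at the start of Mocs2 beyond its 3′ end.

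The laminin-binding α chains all had peaks in both long lists. Itga3 had 4 control female peaks, no control male, 1 VEDS female and 7 VEDS male peaks. The VEDS female peak, at chr11:95089434-95089691, was the best-ranked of that library's 4 peaks of the family (rank 94 of 504, 10 fragments). It lies 12751 bp upstream of the Itga3 start, and a peak covered the same place in the control female library (rank 6655, 24 fragments) and in the VEDS male (rank 2355, 85 fragments). At the Itga3 start itself the peak ranked 18982 in the control female list and 13594 in the VEDS male, below the upstream peak in both. Itga7, the laminin receptor chain of muscle cells, had 3 and 5 peaks. Its peak 2290 bp upstream of the start ranked 5434 in the control female list (26 fragments) and 14741 in the VEDS male (40 fragments), and a peak at the start itself was present in the VEDS male list alone (rank 17590, 37 fragments). Itga6 had 2 peaks in each long list, the best of which (ranks 1528 and 1713) lay at the start of Pdk1 downstream, and the peaks counted to its own gene were at different places in the 2 lists.

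The α chains that bind the RGD sequence of fibronectin and related ligands had 16 peaks in the control female list and 36 in the VEDS male. Itga5, the α chain of the main fibronectin receptor, had 6 and 7 peaks in a window of 62.5 kb. At 9.60 peaks per 100 kb it was the most densely covered gene of the family in the control female library, and at 11.2 it was the second in the VEDS male. A peak 1583 bp upstream of its start ranked 3825 in the control female list (29 fragments) and 7122 in the VEDS male (62 fragments). All 6 control female peaks of Itga5 overlapped a VEDS male peak.

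Itga8 encodes the α8 chain, an RGD receptor chain abundant in VSMCs. It had 6 peaks in the control female library, none in either short list and 17 in the VEDS male. In the control female library the best Itga8 peak lay 19189 bp upstream of the start (rank 10212, 20 fragments, 55.1% repeat-masked), and the same place had the best VEDS male peak (rank 9711, 51 fragments). None of its 6 control female peaks lay within 3 kb of a start. In the VEDS male library 3 did, with 30 fragments and rank 19505 at the start itself (chr2:12301906-12302068), 26 fragments at rank 23236 and 20 fragments at rank 31616. With the VEDS male list cut into 5 equal parts by rank, these 3 peaks lie in the third and the fourth, where 39.6 and 18.1% of all its peaks overlapped a control female peak. Itgav, the chain of the vitronectin receptors, had a promoter peak in both long lists (ranks 5339 and 6268). The best peak of Itga2b, the platelet fibrinogen receptor chain, was also counted as a promoter peak (ranks 4743 and 4725). Its control female summit lies 2775 bp inside the gene. In both lists the peak is within 3 kb of the main start and also over a further annotated start. Platelet markers had a promoter peak for 0 of 4 genes in the control female list and 1 of 4 in the VEDS male.

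Itga9 encodes the α9 chain, a receptor chain for tenascin C and osteopontin. It had the most peaks of the family, 17 in the control female library, none in either short list and 42 in the VEDS male, and in the VEDS male library also the most per 100 kb (12.6). All 17 control female peaks were intronic and each overlapped a VEDS male peak. Intron 15 alone held 8 of them, and 16 of the VEDS male peaks. The best control female Itga9 peak, at chr9:118731661-118732023 in intron 15 (rank 2028, 32 fragments), holds the AP-1 match printed above and lies 125151 bp from the start. The VEDS male peak there ranked 5731 with 56 fragments, and the best VEDS male Itga9 peak lay in intron 14 (rank 2175, 77 fragments, against rank 5227 and 22 fragments in the control female). At the main start of Itga9 only the VEDS male library had a peak, at rank 35645 with 21 fragments. Itga4, its nearest relative and a leukocyte receptor chain for VCAM1 and fibronectin, had 1 peak, at its start in the VEDS male library (rank 27112, 14 fragments).

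**Figure D2:**
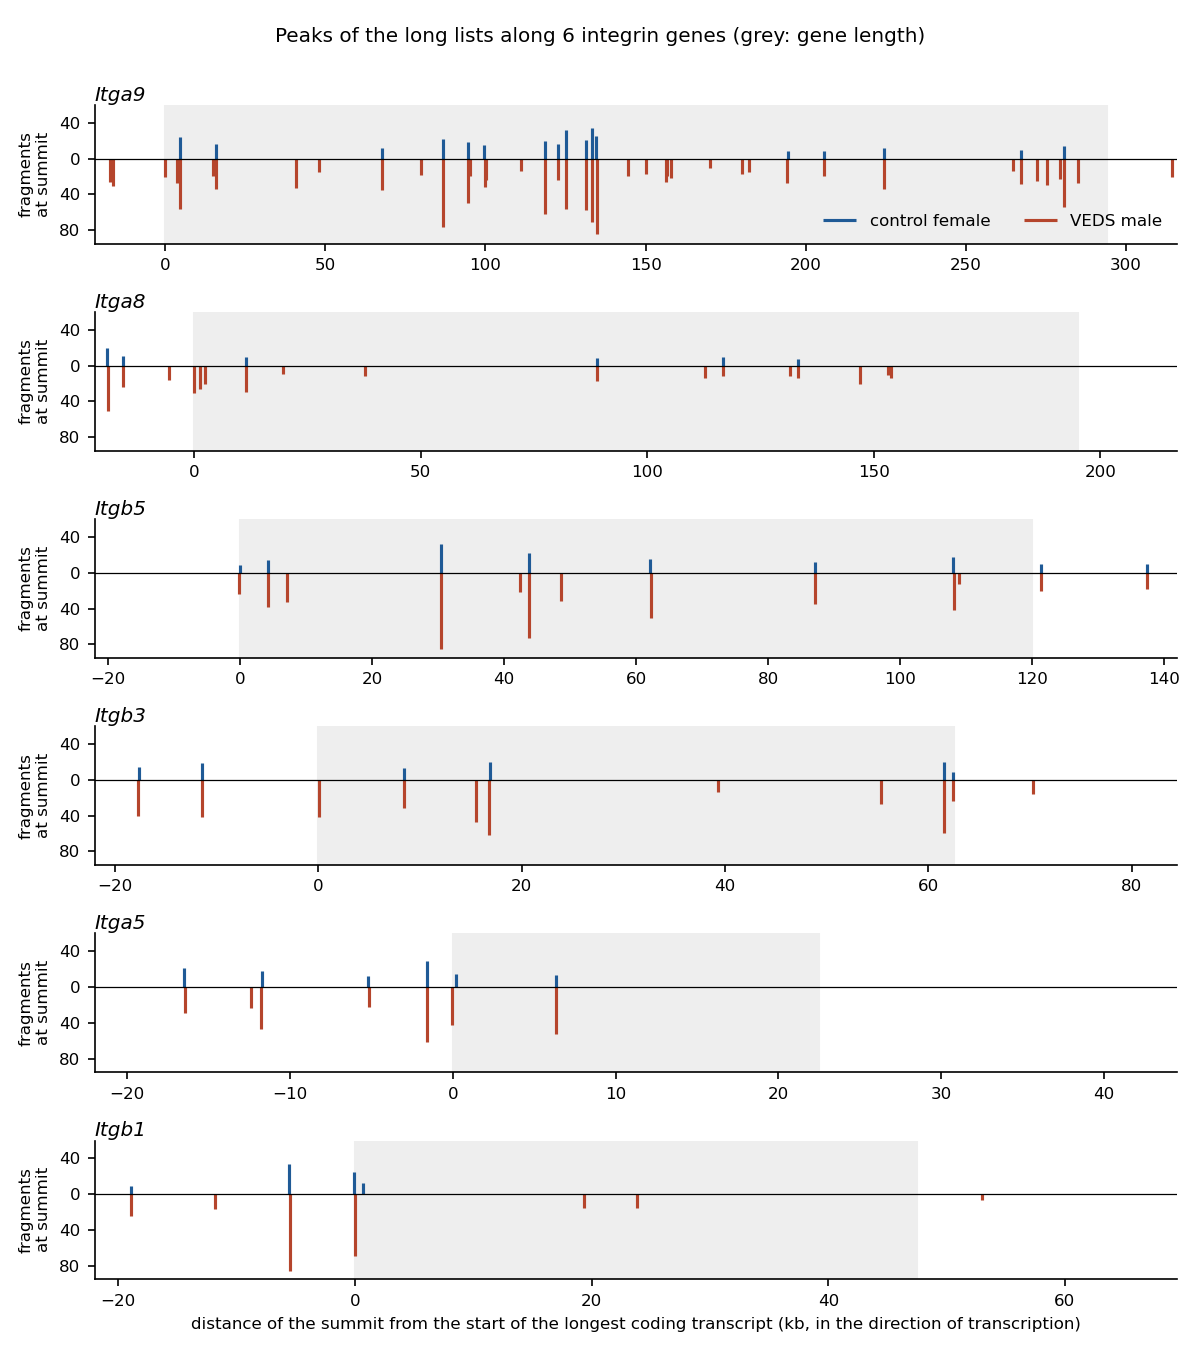
Peaks of the control female (blue, upward) and VEDS male (red, downward) libraries along 6 integrin genes, by distance of the summit from the start of the transcript with the longest coding sequence (kb, horizontal axis) and number of fragments at the summit (vertical axis), with the gene body in grey. Heights were not compared between libraries and are to be read within each. Itga9 peaks crowd in intron 15, Itga8 has no control female peak at its start, and the tallest Itgb1 peak lies 5572 bp upstream with 34 control female and 86 VEDS male fragments.

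Itgb1 encodes the β1 chain, the partner of most α chains above. It had 4 control female peaks, no control male, 1 VEDS female and 7 VEDS male peaks. Its start had a peak in 3 of the 4 libraries, at rank 4726 in the control female list (25 fragments), 381 of 504 in the VEDS female (chr8:128685423-128685667, 5 fragments) and 2688 in the VEDS male (69 fragments), the best own-promoter peak of the family in that list. All 3 peaks overlap the promoter sequence printed above. In both long lists a peak 5572 bp upstream ranked above the promoter, at 1267 with 34 fragments in the control female and at 911 with 86 fragments in the VEDS male, and it holds the printed TEAD match. Among the family's peaks farther than 3 kb from any coding start it had the best rank in both lists. A further control female peak in intron 1, at chr8:128686138-128686375 (rank 17800, 12 fragments), overlapped no peak of the VEDS male list.

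The β chains that pair with αv or with the platelet chain had 21 and 33 peaks in the long lists and none in the short lists. Itgb5, a vitronectin receptor chain, had 9 and 13. Its best peak lay in intron 2 (chr16:33859976-33860314), at rank 1355 with 32 fragments in the control female list and rank 940 with 85 fragments in the VEDS male. The intron 3 peak that holds the AP-1 and MEF2 matches shown above ranked 6131 with 22 fragments and 2615 with 73. The peak at the Itgb5 start ranked far lower, at 19998 with 9 fragments and 25166 with 24. Itgb3, the chain shared by the vitronectin receptor and the platelet fibrinogen receptor, had 6 and 11 peaks. A peak at its start was found in the VEDS male library alone (rank 10338, 41 fragments), and the best Itgb3 peak lay 11474 bp upstream in the control female list (rank 5021) and in exon 15 in the VEDS male (rank 4645). Itgb6 had 4 peaks in each long list at the same 4 places. Itgb8, which with αv activates latent TGF-β, had a promoter peak at rank 17910 (7 fragments) and 8297 (32 fragments).

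The leukocyte chains had most of their peaks at other genes. The 7 leukocyte chain genes (Itgad, Itgae, Itgal, Itgam, Itgax, Itgb2 and Itgb7) had 11 peaks in the control female list and 17 in the VEDS male. In any library 0 of the 7 had a peak at a start of its own, beside 47.4% (control female) and 58.5% (VEDS male) of all protein-coding genes. Itga4, a leukocyte chain grouped with Itga9 above, is not among the 7 and had a start peak in the VEDS male library. Of the peaks of the 7 genes, 10 of the 11 and 15 of the 17 lay within 3 kb of the start of another coding gene. In the 30 other genes 13 of 101 and 18 of 210 did so without also lying at a start of the gene itself. Peaks at both, as at Itga1 and Lamb2, were left out of the 13 and 18. The share of such peaks around all protein-coding genes is not given. Itgae, an epithelial-homing T-cell chain, had the most peaks of the leukocyte α chains, 3 and 4, at the starts of Haspin and P2rx5. The peaks of Itgb2, the β chain of LFA-1 and related leukocyte receptors, lay at Fam207a and Pttg1ip in the control female library. The 3 Itgb7 peaks of that library comprised those at Csad and Rarg and a peak of 8 fragments in exon 3. Itgb4, the hemidesmosome chain, had both its control female peaks at other genes, Galk1 and H3f3b, and 2 of its 4 VEDS male peaks there, with no peak at its own start. Markers of immune cells had a promoter peak for 0 of 5 genes in the control female library and 1 of 5 in the VEDS male (Csf1r), and markers of epithelia for 0 of 4 in both. Those of adipocytes had one for 0 and 1 of 3 genes, of Schwann cells for 1 and 1 of 3 and of striated muscle for 1 and 2 of 4. Over all protein-coding genes these promoter shares were 47.4 and 58.5%. Any peak was found for 2 and 3 of 5 immune markers, 1 and 1 of 4 epithelial and 2 and 3 of 3 adipocyte ones. It was found for 2 and 2 of 3 Schwann, 3 and 3 of 4 striated muscle, 3 and 3 of 5 fibroblast and 0 and 2 of 4 platelet markers, beside 64.1 and 73.5% of all. The part of these other cell types, and of fibroblasts and platelets above, in the results was not tested.

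The control male list held 2 Itgad peaks. One lay at the start of Armc5, where both long lists had a peak, and the other in Itgad intron 11 (10 fragments), 66.3% repeat-masked, where the VEDS male list also had a peak and the control female list did not.

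Laminin genes had 23 control female peaks, 1 control male, 2 VEDS female and 57 VEDS male peaks. The α chain genes accounted for 9 and 32 of those in the long lists. A promoter peak was found for 4 of the 5 in the VEDS male library (beside 58.5% of all protein-coding genes). In the control female library 1 had one, Lama4 (beside 47.4% of all). The Lama1 and Lama3 start peaks ranked 27959 (13 fragments) and 32516 (11 fragments) in the VEDS male list. Both peaks would be left out with that list shortened to the 21176 peaks of the control female list. Lama4 and Lama5 encode the α chains of vascular basement membranes, including that of the endothelium. Endothelial markers had a promoter peak for 1 of 5 genes (Pecam1) in the control female library and 4 of 5 in the VEDS male. Counting peaks anywhere in the gene window, 4 of the 5 markers had one in control females (beside 64.1% of all protein-coding genes). All 5 did in VEDS males (beside 73.5%). The part of these markers in the laminin counts was not tested. Lama4 had 3 control female peaks, no control male, 1 VEDS female and 8 VEDS male peaks, with its promoter peak at rank 12285 (15 fragments) and 15718 (32 fragments). The VEDS female Lama4 peak, 18359 bp upstream at chr10:38947080-38947322 (rank 192 of 504, 5 fragments), overlapped a VEDS male peak and no control female peak.

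Lama5 had 3 control female peaks, 1 control male, no VEDS female and 9 VEDS male peaks. The control male peak, at chr2:180214948-180215316 in intron 2 (rank 824 of 1236, 8 fragments), lies where the control female list had a peak at rank 10545 with 21 fragments and the VEDS male at rank 5940 with 68. The printed MEF2 match lies inside all 3 peaks. At the Lama5 start a peak was found in the VEDS male library alone (rank 12035, 54 fragments). Lama2, the α chain of muscle basement membranes and the longest gene of the family at 640 kb, had 2 and 6 peaks, all intronic, and the lowest density among the genes with a peak in the control female library (0.294 per 100 kb). Lama3, of epithelial laminin, had 1 and 6. Lama1, the α chain of early embryonic laminin, had 3 peaks in the VEDS male library only, at ranks 9238, 27959 and 32505, the first of which is wholly repeat-masked (100%) and the second of which lies at its start.

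Lamb2, the laminin β chain of muscle and vessels, had 4 and 5 peaks in a window of 50.8 kb, and at 7.87 per 100 kb it was the second most densely covered gene in the control female library. Its best-ranked promoter peak there (rank 2310, 29 fragments) lies 10805 bp from the main start at an annotated start of Usp19 as well as one of Lamb2, and the peak 918 bp upstream of the main start ranked 20356 with 8 fragments. Lamb3 had 3 peaks in each long list. Lamc1, the γ chain of most laminins, had a promoter peak at rank 4722 in the control female list (25 fragments) and 3230 in the VEDS male (72 fragments), and the intron 18 peak that holds the printed CArG match ranked 5254 and 8301. One peak of each long list lay near 2 genes of the family and was counted for both. Lamc3 had 1 peak, at its start in the VEDS male list (rank 29100, 16 fragments).

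The genes with a peak in the VEDS male and not in the control female library were thus Itga4, Itga11, Lama1 and Lamc3 (10.8% of the family, beside 9.60% of all protein-coding genes), and no gene showed the converse (beside 0.232% of all). With the libraries of each genotype merged, 30 genes had a peak in control and 34 in VEDS.

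Nearly all control female peaks of the family, and a smaller share of the VEDS male peaks, were at places shared by the 2 long lists. Of the 111 control female peaks, 107 overlapped a VEDS male peak by at least 1 bp (96.4%, 91.1 to 98.6), beside 95% of all peaks of the list. The 4 that did not were at Itga6, Itgb1 intron 1, Itgb7 exon 3 and Lamb3 intron 22. They had a median of 8.50 fragments at the summit, against 15.0 for the 107 that did. Of the 226 VEDS male peaks, 106 overlapped a control female peak (46.9%, 40.5 to 53.4), beside 47.6% of all. The 120 that did not had a median of 18 fragments at the summit, against 39.5 for the 106 that did. In 5 equal parts of the VEDS male list, taken from the highest ranks, the share was 100% (43 of 43), 78.3, 33.3, 18 and 7.14%, and over all peaks of the list it was 97.6, 75.1, 39.6, 18.1 and 7.52%. With both lists at 21176 peaks the shares were 78.4% and 74.1%, beside 79.6% and 77.6% of all peaks. In both directions, and at both list sizes, the share of the list lay within the counting interval of the family's share. All 7 peaks of the short lists overlapped a VEDS male peak, and 5 of the 7 overlapped a control female peak also.

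**Figure D3:**
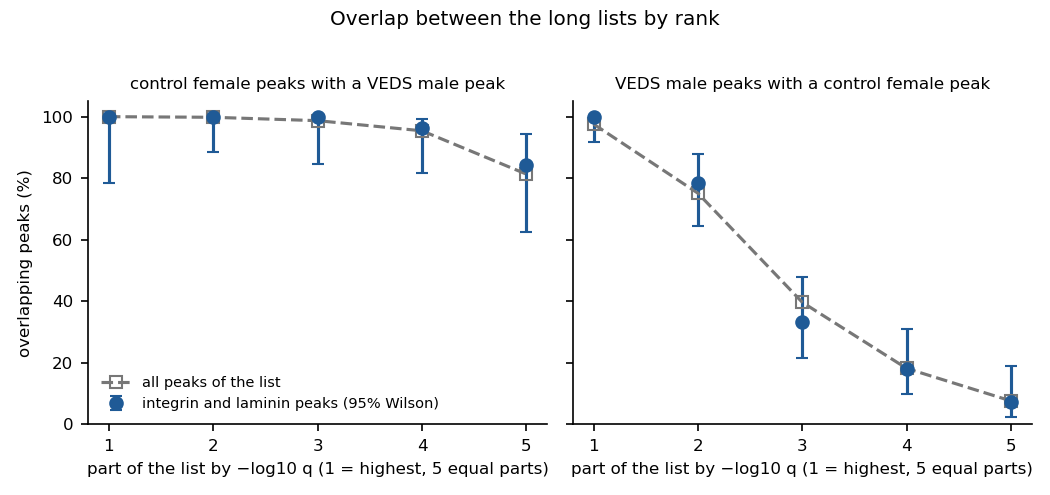
The share of integrin and laminin peaks of one long list that overlap a peak of the other (filled circles, percent, with 95% Wilson intervals), in 5 equal parts of the list from the highest −log10 q, and the same share over all peaks of the list (open squares). In the VEDS male list the share falls from 100% to 7.14% for the family and from 97.6% to 7.52% for the list.

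Consensus sequences were searched on both strands in the 300 bp around each summit. AP-1, the JUN and FOS factors, was searched as TGACTCA or TGAGTCA, and TEAD as ACATTCC or CATTCCA. MEF2 and CArG were searched by their consensus of 10 bases. Farther than 3 kb from any coding start, AP-1 matches were found at 13 of 65 control female peaks (20%, 12.1 to 31.3), beside 18.2% of such peaks in the list, and at 31 of 150 VEDS male peaks (20.7%, 15.0 to 27.8), beside 15.4%. MEF2 matches were at 8 of 65 (12.3%, 6.37 to 22.5), beside 9.11%, and at 13 of 150 (8.67%, 5.13 to 14.3), beside 7.93%. CArG, bound by serum response factor at contractile genes, was at 7 of 65 (10.8%, 5.32 to 20.6), beside 4.24%, and at 10 of 150 (6.67%, 3.66 to 11.8), beside 3.91%. The 7 control female CArG peaks lay at Itga6, Itga8, Itga9, Itgb3, Lama5 and Lamc1. TEAD matches were at 10 of 65 (15.4%, 8.58 to 26.1), beside 14.2%, and at 21 of 150 (14.0%, 9.34 to 20.5), beside 12.6%. The list's share lay within the family's interval in all but one of the 8 comparisons, the exception being CArG in the control female list, and no test was made. Peaks of 1 gene are not independent, and a match describes the sequence and not binding.

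**Figure D4:**
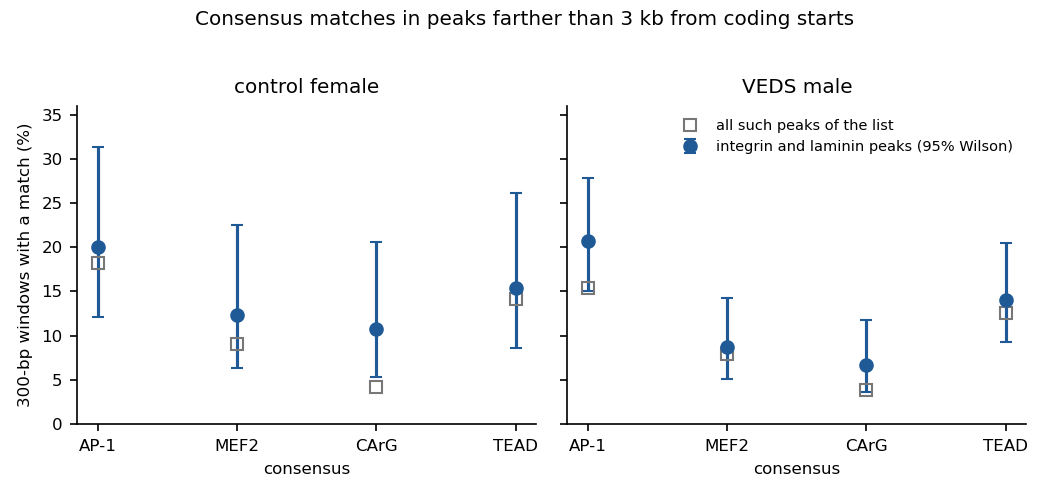
The share of 300-bp summit windows with a match to each consensus (percent) in integrin and laminin peaks farther than 3 kb from coding starts (filled circles, 95% Wilson intervals), and in all such peaks of the same list (open squares), for the 2 long lists. The control female CArG share, 10.8% against 4.24%, is the one whose interval leaves out the share of the list.

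Promoter sequences from RefSeq (GRCm38.p6, 250 bases before to 50 after the start) matched 23 of the 37 genes. By the observed to expected CpG ratio of that sequence, 8 were above 0.6 and 15 at or below, and a peak was sought within 3 kb of the same RefSeq start. Of the 8, which were Itga3, Itga8, Itgav, Itgb1, Itgb5, Itgb6, Lama5 and Lamb1, one was found for 5 in the control female library (62.5%, beside 74.6% of such coding genes) and for 7 in the VEDS male (87.5%, beside 86.5%). Lamb1 was the gene without one in both. Of the 15, 6 had one in the control female (40%, beside 18.5%) and 7 in the VEDS male (46.7%, beside 27.6%). The low-CpG genes with a peak in both were Itga1, Itga2b, Itga5, Itga10, Itgb8 and Lamb2, and Itga4 was added in the VEDS male. For Itga9, Itgb6 and Lamb3 the RefSeq start lay 105002, 48892 and 94269 bp from the main start used elsewhere. A GC box (GGGCGG, either strand) was in 47.8% of the 23 promoters, beside 48.0% of the 16522 coding promoters. A CCAAT box (CCAAT) was in 13.0% beside 38.7%, and a TATA box (TATAAA) in 0% beside 12.9%. The short CRE consensus (TGACG), which is not the full element, was in 21.7% beside 24.4%. A CArG match was in the promoter of Lama2 (4.35%, beside 1.54%).

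Genes that act with the integrins and laminins were counted in the same way. Over all protein-coding genes, 64.1 and 73.5% had a peak in the long lists (control female first) and 47.4 and 58.5% had one at the promoter, as above. Of 20 adaptors and kinases of integrin adhesions, 18 (90%) had a control female peak and all 20 a VEDS male peak, at the promoter for 15 (75%) and 17 (85%). Tns1, a tensin that ties β chains to actin, had 15 and 43 peaks. Fermt3, the kindlin of blood cells, had 2 and 4 peaks and no promoter peak in either. Of 10 partners of laminin in the basement membrane, 9 and 10 had a peak, 8 and 9 at the promoter, and Nid1, a nidogen that links laminin to type IV collagen, was without a promoter peak in both. All 10 integrin ligands other than laminins had a peak in both long lists, and 5 of them, the same in both, had one at the promoter: Fn1, Vtn, Tnc, Npnt and Thbs1. In the short lists, the control male had peaks at 3, 2 and 1 genes of the 3 lists (beside 4.61% of all coding genes) and the VEDS female at 3, 0 and 1 (beside 3.20%).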

How the data were processed

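The 4 ATAC-seq libraries of aortic nuclei each came from 2 mice and were grouped by the genotype and sex in the sample annotations. The authors aligned reads to mm10 (GRCm38), took out duplicates with the barcodes in view, shifted reads for the Tn5 cut, ran MACS2 in narrow-peak mode on each library and dropped blacklisted regions. The aligner and the threshold for a peak are not given in the sources used here. The lowest −log10 q in a list was 1.30 to 1.32. The deposited score is 10 times the −log10 q without decimals, the deposited fold enrichment is a ratio of the summit to its local background, and the deposited −log10 p and −log10 q are those of MACS2.

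The members and lists were chosen with earlier results of these data known. Described were genes with a peak in a short list, with most peaks, with the best promoter ranks, with no peak or with peaks in 1 long list, and those that the study names. Peaks were counted within 20 kb of GENCODE vM21 genes, and a promoter peak within 3 kb of an annotated start. The fragments at a summit were taken to be the whole number for which a Poisson distribution returns the deposited −log10 p and fold enrichment together. The method was run on simulated data made with the same Poisson formula, which checks the inversion only. Whether the recovered units are whole fragments was not tested. In the deposited data the method gave a number for 99.3 to 99.9% of each list. At medians of 6 to 22 fragments, weak sites can be missed. The 95% Wilson intervals of shares hold counting error alone. The libraries of a genotype differ in sex, so no test between genotypes was made. The analysis used Python 3.11.15, numpy 2.4.6, pandas 2.3.3, scipy 1.17.1, pysam 0.24.0 and matplotlib 3.10.9. Alternatives were another q threshold, window, promoter width, list size and overlap, and leaving out masked peaks, peaks at other genes and each library. The results of 1 gene of the family are not reported here, and it stays in the counts over the family.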

Additional observations from a re-analysis of the deposited data

Results flagged for a closer look

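The number of integrin and laminin genes with a peak differed between the genotypes in opposite directions in the 2 sexes. In females VEDS minus control was -26, from 30 genes in control to 4 in VEDS. In males it was 32, from 2 genes in control to 34 in VEDS. With 1 library per genotype and sex this difference was not tested. The direction in each sex is that of the list lengths, which were 21176 and 504 peaks in females and 1236 and 41444 in males. With every list shortened to its 504 highest-ranked peaks both differences changed sign, to 4 in females (0 genes in control and 4 in VEDS) and -1 in males (1 in control and 0 in VEDS). At this size the VEDS female list is whole (beside 3.20% of all protein-coding genes), while the other lists keep only their highest-ranked peaks. The share of all protein-coding genes at this size is not given for the other lists, so the change of sign cannot be read as a trait of the family.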

How the results depend on the processing

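Of 84 alternative values computed, 58 stayed within 1.5 times the count or within the counting interval of the value reported, 24 moved beyond it and 2 reversed. With each list shortened to its 504 highest-ranked peaks, control females had 0 genes with a peak, control males 1 and VEDS males 0, with 0 promoter peaks for control females and 0 for VEDS males, so that 1 gene had a peak in control and 4 in VEDS. The difference between VEDS and control then reversed, from -26 to 4 in females and from 32 to -1 in males, with no share of all coding genes given for the shortened lists. This was the only one of 7 settings, added after seeing the data, to turn it. At a −log10 q of at least 5, 1 gene had a peak in each short list and 0 had a VEDS female promoter peak. At 10, the control male and the VEDS female had 0 genes and 0 promoters, and the overlap was 100% of control female and 37.7% of VEDS male peaks. A window of 50 kb gave 5 genes in the control male and the gene body alone 2 in the VEDS female. Promoters of 1 kb, or the main start only (an alternative chosen after seeing the data), left 1 gene in the VEDS female. With the long lists at equal size the overlap was 78.4% and 74.1%, and an overlap of 50% of the bases gave 35.8% for the VEDS male. Leaving out 1 library gave 2 to 30 genes with a peak in control (2 without the female) and 4 to 34 in VEDS (4 without the male). Leaving out masked peaks, or peaks at starts of other coding genes, moved none of the numbers of genes with a peak per library by over 1.5 times, but peaks at other genes made up 10 of the 11 and 15 of the 17 leukocyte peaks. No paired analysis was possible because the results are counts from no test, and the libraries share only their sex between genotypes, which leaves 1 library of each genotype in a pair. The family's peaks in the short lists rest on 5 to 10 fragments, and whether those lists are short from their depth or from the peak calling was not tested.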
